A study of Arvicanthis niloticus with 7 samples.

Results

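The enzymes described here convert the nitrogen of amino acids into urea and break down amino acid carbon skeletons. Their list holds 46 genes, chosen by gene symbol. Of these, 41 had at least 1 listed probe on the mouse BeadChip used, and 17 had a probe that was detected, with a detection p under 0.01, on at least 2 of the 7 arrays. The RNA came from male Nile rats (NRs, *Arvicanthis niloticus*), rodents that become diabetic on carbohydrate-rich food, and its labelled tissue was liver. The 4 control arrays came from NRs that ate a diet with 70% of its energy as carbohydrate for 4 weeks, and the 3 PFJ arrays from NRs on that diet with palm fruit juice, at 5.4 g of gallic acid equivalents per kg of diet. The labels give an age of 3 weeks, which the methods place at the start of feeding. The RNA samples were those of best integrity in each group, and the animals behind them are not named, so the p-values describe the spread between arrays.

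Amino acids in excess of what protein synthesis needs lose their nitrogen mainly in the liver. Transaminases pass the amino group to glutamate, glutamate dehydrogenase frees it as ammonia inside mitochondria, and the urea cycle of periportal hepatocytes joins it to bicarbonate. The carbon skeletons enter the citric acid cycle, glucose synthesis or ketone bodies through a separate route for each amino acid. Several of these routes also run in the tubules of the kidney, and the branched-chain route runs in most tissues.

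Control replicates 3 and 4 stood apart from the other 5 arrays. Across the 5763 probes tested, which are not independent of each other, they correlated at r = 0.984 with each other and at 0.72 to 0.739 with the rest, while the other 5 arrays correlated at 0.959 to 0.981. Of 14 hepatocyte markers 10 were detected, and their median log2 signal was 8.13 and 8.39 on control replicates 3 and 4 against 15.84 to 15.92 elsewhere. Among these 10, 9 were lower on control replicates 3 and 4 than on every other array, and *Fga* was not. Of 16 kidney tubule markers 9 were detected, with a median of 13.33 and 13.14 on these 2 arrays against 7.04 to 7.89 (each of the 9 was higher there). The loop of Henle genes *Umod* and *Slc12a1* were detected on these 2 arrays alone. The labelled tissue, liver, therefore did not match the markers of control replicates 3 and 4, and the results are given with and without them. In bulk RNA, fewer cells of a type and less RNA per cell cannot be told apart.

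**Figure D1:**
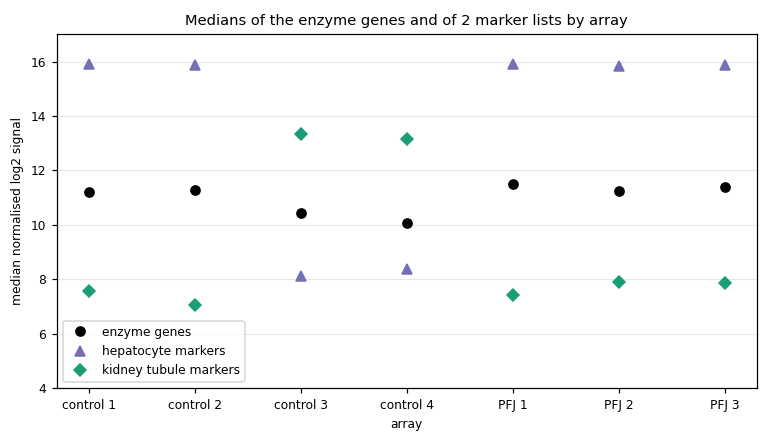
Median normalised log2 signal (vertical axis) of the 17 detected enzyme genes, 10 hepatocyte markers and 9 kidney tubule markers on each array (horizontal axis). On control replicates 3 and 4 the hepatocyte markers lay at 8.13 and 8.39, the kidney tubule markers at 13.33 and 13.14 and the enzymes at 10.44 and 10.07.

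With PFJ, 0 of the 17 enzyme genes passed an adjusted p under 0.05 (limma, adjusted over all probes tested), as did 0% of all probes. At an unadjusted p under 0.05, 2 of the 17 were higher with PFJ, *Mat1a* and *Hsd17b10*, where 2.31% of all probes were. None was lower, where 2.38% of all probes were. No gene had all 3 PFJ arrays below all 4 controls (4.1% of all probes did), and 2 had them all above (3.37%), again *Mat1a* and *Hsd17b10*. *Mat1a* passed the detection filter through PFJ arrays alone and so had to be higher. The log2 fold change, PFJ minus control, was positive for 15 of 17 genes, compared with 49.8% of all probes, and its median was 0.58, against -0.0024 over all probes. Without control replicates 3 and 4 the sign was positive for 11 of 17, against 47.7% of probes, the median was 0.17, and 8 of the 17 signs turned. The value shrank in size for 12 of 17. One gene, *Mat1a*, was then higher at an unadjusted p under 0.05 (1.58% of probes), and again 0 passed the adjusted threshold (0.0174% of probes). The adjusted p-values from limma lay between 0.54 and 0.941 over the 17 genes on all 7 arrays, and each was 0.9995 without the 2 arrays.

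Read by array, the enzymes fell into several patterns. On control replicates 3 and 4, 8 of the 17 genes lay below all other arrays (28% of all probes did so) and 2 lay above them (30.4%). The 8 were *Nags*, *Cps1*, *Asl*, *Afmid*, *Glud1*, *Got2*, *Gnmt* and *Hsd17b10*, and the 2 were *Prodh2* and *Bckdha*. For *Hsd17b10* this held only after normalisation, as its raw signal was 213 on control replicate 3 and 209 on control replicate 2. Of the 17, 10 were detected on all 7 arrays and 4 were detected on the other 5 arrays but on neither control replicate 3 nor 4. Over those other 5 arrays, the range of a gene was between 0.16 and 3.65 on the log2 scale, with a median of 0.85.

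**Figure D2:**
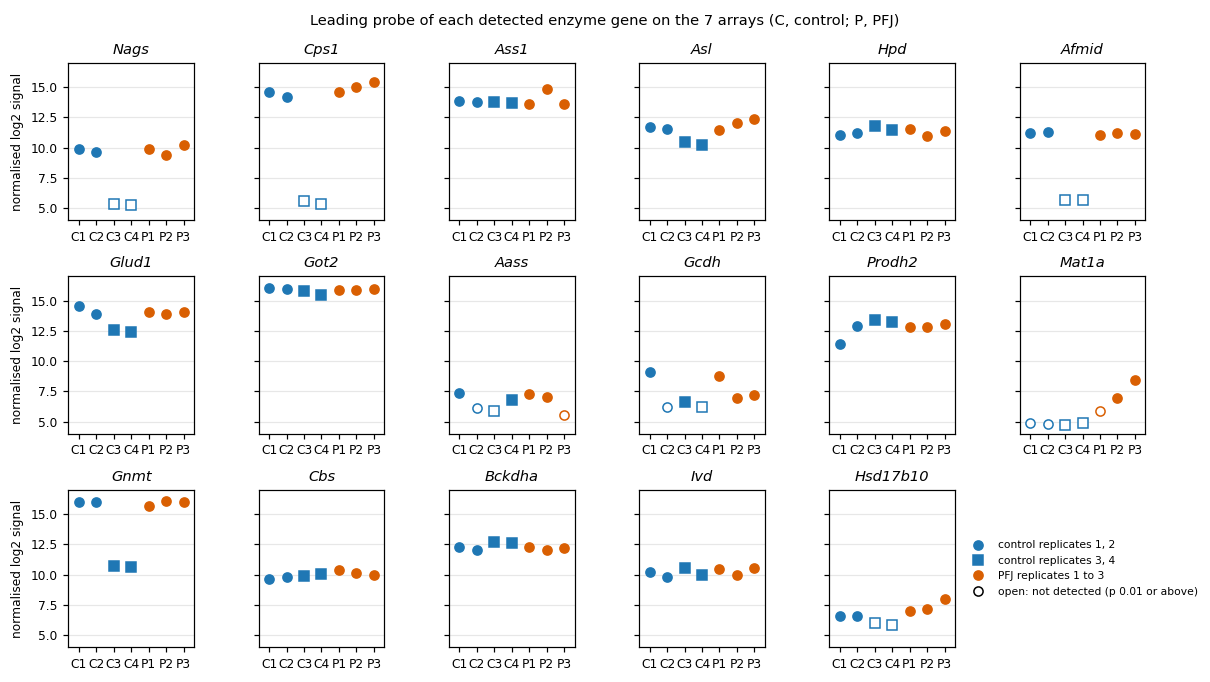
Normalised log2 signal (vertical axis) of the leading probe of 17 enzyme genes on control arrays C1 to C4 and PFJ arrays P1 to P3 (horizontal axis), with squares for control replicates 3 and 4 and open symbols for arrays on which the probe was not detected. *Nags*, *Cps1* and *Afmid* are not detected on C3 and C4, *Ass1*, *Cbs* and *Ivd* stay near their level on the other arrays, and *Mat1a* is detected on P2 and P3 alone.

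In the urea cycle, 4 of 6 genes were detected. *Nags* encodes the mitochondrial synthase of N-acetylglutamate, the cofactor without which the cycle cannot start. Its log2 signals were 9.90 and 9.61 on control replicates 1 and 2, 9.89, 9.36 and 10.21 on the PFJ arrays, and 5.39 and 5.28 on control replicates 3 and 4, where the probe was not detected. The PFJ values overlapped those of control replicates 1 and 2, and the log2 fold change was 2.28 (95% interval -0.80 to 5.35) on all arrays and 0.07 (-0.66 to 0.79) without the 2 low ones.

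*Cps1* encodes carbamoyl-phosphate synthetase, the entry enzyme that needs this cofactor. Its raw signals were 27078 and 19147 on control replicates 1 and 2, 26125, 38671 and 39785 with PFJ, and 192 and 154 on control replicates 3 and 4, where the probe was not detected. After normalisation the PFJ values were 14.59, 15.02 and 15.43, and the first of these was no higher than the 14.59 of control replicate 1. PFJ minus control came to 5.09 on the log2 scale on all arrays, with a standard error of 2.59 and a 95% interval from -1.03 to 11.22. Without control replicates 3 and 4 it was 0.64, with an interval from -0.11 to 1.38 (adjusted p = 0.9995 from limma).

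*Ass1*, argininosuccinate synthase, which joins citrulline to aspartate and also serves arginine synthesis in the kidney, behaved differently from *Cps1*. Its log2 signals were 13.89, 13.80, 13.75 and 13.69 on the 4 control arrays and 13.63, 14.84 and 13.64 on the PFJ arrays. A single array, PFJ replicate 2, was high, and control replicates 3 and 4 were close to the other controls, all 4 within a range of 0.20. Its log2 fold change of 0.25 (standard error 0.33) turned to -0.15 without PFJ replicate 2.

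*Asl*, argininosuccinate lyase, which releases arginine and fumarate, was measured by 2 probes. The leading probe gave 11.71 and 11.53 on control replicates 1 and 2, 10.44 and 10.22 on replicates 3 and 4, and 11.49, 12.004 and 12.38 with PFJ. It remained detected on all 7 arrays, unlike *Nags* and *Cps1*. Its log2 fold change was 0.98 (standard error 0.45) on all arrays and 0.34 (standard error 0.30) without the 2 low arrays, and the second probe gave 1.17 and 0.40. *Cps1*, *Asl*, *Mat1a* and *Hsd17b10* were selected by the study as changed on these same arrays, so their direction is not independent evidence. The kidney tubule markers moved opposite to *Nags*, *Cps1* and *Asl*, from 7.04 to 7.89 on the other arrays to 13.33 and 13.14 on control replicates 3 and 4, and their part in the result was not tested.

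*Otc* and *Arg1* complete the cycle, as ornithine transcarbamylase in mitochondria and arginase in the cytosol. Neither *Otc* probe was detected on any array. The *Arg1* probe was detected on PFJ replicate 3 alone, at a raw signal of 212, and lay between 132 and 139 on the controls and at 146 and 157 on PFJ replicates 1 and 2.

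For aromatic amino acids, *Hpd* and *Afmid* were detected among 9 listed genes, of which *Hgd* and *Haao* had no listed probe. *Hpd* encodes the dioxygenase of the second step of tyrosine breakdown, and the study used it as a reference gene for PCR. Its log2 signals were 11.05, 11.20, 11.76 and 11.45 on the control arrays and 11.52, 10.997 and 11.38 with PFJ. The groups overlapped, and control replicate 3 was the highest. PFJ minus control was -0.07 on the log2 scale and had a 95% interval from -0.66 to 0.53. It was 0.17 (-0.40 to 0.74) without control replicates 3 and 4 and 0.06 with scaling to equal medians.

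*Afmid* encodes the formamidase that yields kynurenine in the course of tryptophan breakdown. Its leading probe gave 11.20 and 11.28 on control replicates 1 and 2, 11.04, 11.23 and 11.11 with PFJ, and 5.65 and 5.66 on control replicates 3 and 4. Over the 5 arrays other than these its range was 0.24, the smallest of the 17 genes after *Got2*. The probe was not detected on control replicates 3 and 4, on which the median of the hepatocyte markers was 8.13 and 8.39, and the part of those markers in the result was not tested. Its log2 fold change was 2.68 (standard error 1.62) on all arrays and -0.11 (95% interval -0.58 to 0.36) without these 2.

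Around glutamate, *Glud1* and *Got2* were detected. *Glud1* encodes glutamate dehydrogenase, which frees ammonia for the urea cycle. Its leading probe gave 14.57, 13.93, 12.60 and 12.42 on the control arrays and 14.09, 13.92 and 14.02 with PFJ. Control replicates 3 and 4 were low but detected, and the PFJ arrays lay between or just below control replicates 1 and 2. The log2 fold change of 0.63 (standard error 0.55) thus had the other sign, to -0.24 (standard error 0.25), without control replicates 3 and 4.

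*Got2*, the mitochondrial aspartate transaminase of the malate-aspartate shuttle, was 16.02, 15.93, 15.80 and 15.44 in controls and 15.86, 15.86 and 15.93 with PFJ. Its raw signal reached 94.7% of the brightest probe on the same array, and that of *Gnmt* 96.4%. Whether these signals were saturated was not tested. The log2 fold change was 0.09 (95% interval -0.41 to 0.58) on all arrays and -0.09 (-0.54 to 0.37) without the 2 arrays.

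In lysine breakdown, *Aass*, the entry enzyme, and *Gcdh*, glutaryl-CoA dehydrogenase, were dim. The *Aass* probe was detected on 4 arrays, with 7.38, 6.15, 5.87 and 6.75 in controls and 7.26, 7.06 and 5.55 with PFJ. Both diet groups held detected and undetected arrays, and the log2 fold change was 0.09 (standard error 0.54). *Gcdh* was 9.12, 6.25, 6.63 and 6.22 in controls and 8.80, 6.95 and 7.17 with PFJ. Control replicate 1 and PFJ replicate 1 were the high arrays, and the log2 fold change of 0.58 (standard error 0.82) became 1.27 when control replicate 1 was left out and 0.0040 when PFJ replicate 1 was.

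*Prodh2* encodes hydroxyproline dehydrogenase, which acts in liver and kidney on the product of collagen turnover. Its leading probe gave 11.42, 12.87, 13.41 and 13.26 on the control arrays and 12.86, 12.85 and 13.10 on the PFJ arrays. Control replicates 3 and 4 were the highest of the 7, in the same direction as the kidney tubule markers, whose part in this was not tested, and control replicate 1 was the lowest. PFJ minus control was 0.20 on the log2 scale (standard error 0.49), became -0.24 without control replicate 1 and was 0.79 (standard error 0.43) without control replicates 3 and 4. The 3 PFJ arrays spanned only 0.26 of log2 signal, against 1.46 between control replicates 1 and 2.

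Methionine is activated to S-adenosylmethionine, gives away its methyl group and is either regenerated or converted to cysteine. *Mat1a* encodes the liver form of the synthetase for the activation step. Its raw signals were 135, 130, 139 and 131 on the control arrays, with no detection, and 178, 247 and 381 with PFJ, of which the last 2 were detected. All 3 PFJ values lay above all control values, as for 3.37% of all probes. As it passed the detection filter through the PFJ arrays alone, a difference was fixed by that filter and is no support for one. The control signal is only an upper bound, and so is that of PFJ replicate 1, at 5.86 under a detection limit of 6.39. The PFJ and control groups had measured log2 means of 7.08 ± 1.28 (SD, n = 3) and 4.82 ± 0.07 (SD, n = 4) and an adjusted p of 0.54 from limma. A ratio was taken of the mean of the PFJ arrays to the weakest signal that counted as detected on each control array. It was 1.69-fold, which is no strict lower limit because PFJ replicate 1 entered at its measured value. The ratio was 1.06-fold without PFJ replicate 3 and 2.58-fold without PFJ replicate 1, where both remaining PFJ arrays were detected. The fitted difference of 2.26 on the log2 scale (standard error 0.55) is no bound, and was 1.05 with no background correction and 3.41 with the authors' own values.

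*Gnmt* encodes glycine N-methyltransferase, which uses up surplus S-adenosylmethionine and is abundant in hepatocytes. Its log2 signals were 15.99 on both control replicates 1 and 2, 15.69, 16.05 and 15.997 with PFJ, and 10.73 and 10.60 on control replicates 3 and 4. The probe stayed detected on these 2 arrays, at raw signals of 2278 and 1733 against 56913 to 68039 elsewhere. Its log2 fold change was 2.59 (standard error 1.55) on all arrays and -0.07 (95% interval -0.59 to 0.44) without them. The hepatocyte markers were low on the same 2 arrays, and their part in the result was not tested.

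*Cbs*, cystathionine beta-synthase, which opens the route to cysteine, did not share this pattern. Its leading probe was 9.62, 9.82, 9.85 and 10.07 in controls and 10.34, 10.13 and 9.96 with PFJ, a log2 fold change of 0.30 (95% interval -0.18 to 0.79). All 3 PFJ arrays lay above control replicates 1 and 2, as for 7.84% of all probes and for *Mat1a* and *Hsd17b10*, but control replicate 4 lay within the PFJ values. The second *Cbs* probe, at 8.38 to 9.07 in controls and 8.78 to 8.95 with PFJ, showed no such separation, with a log2 fold change of 0.06 (-0.49 to 0.61).

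In the branched-chain route, 3 of 7 genes were detected. *Bckdha*, a catalytic subunit of the dehydrogenase complex that commits leucine, isoleucine and valine to oxidation, was 12.26, 11.99, 12.66 and 12.60 in controls and 12.28, 12.03 and 12.15 with PFJ. Control replicates 3 and 4 were the highest, and the log2 fold change of -0.22 (95% interval -0.77 to 0.33) was 0.03 (-0.48 to 0.53) without them. *Ivd*, isovaleryl-CoA dehydrogenase of leucine breakdown, was 10.21, 9.78, 10.54 and 9.94 in controls and 10.43, 9.98 and 10.50 with PFJ, with overlap of the groups and a log2 fold change of 0.18 (-0.44 to 0.80).

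*Hsd17b10* encodes a mitochondrial dehydrogenase of isoleucine breakdown, which is also a subunit of mitochondrial RNase P. Its log2 signals were 6.59, 6.58, 5.96 and 5.83 on the control arrays and 6.99, 7.11 and 7.96 on the PFJ arrays. All 3 PFJ arrays were above all controls, and the probe was not detected on control replicates 3 and 4. The raw signals were close to background on every array, between 181 and 313. PFJ minus control was 1.11 on the log2 scale (95% interval 0.32 to 1.91, adjusted p = 0.54 from limma) on all arrays, 0.77 (-0.03 to 1.57) without control replicates 3 and 4, and 0.53 with no background correction.

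**Figure D3:**
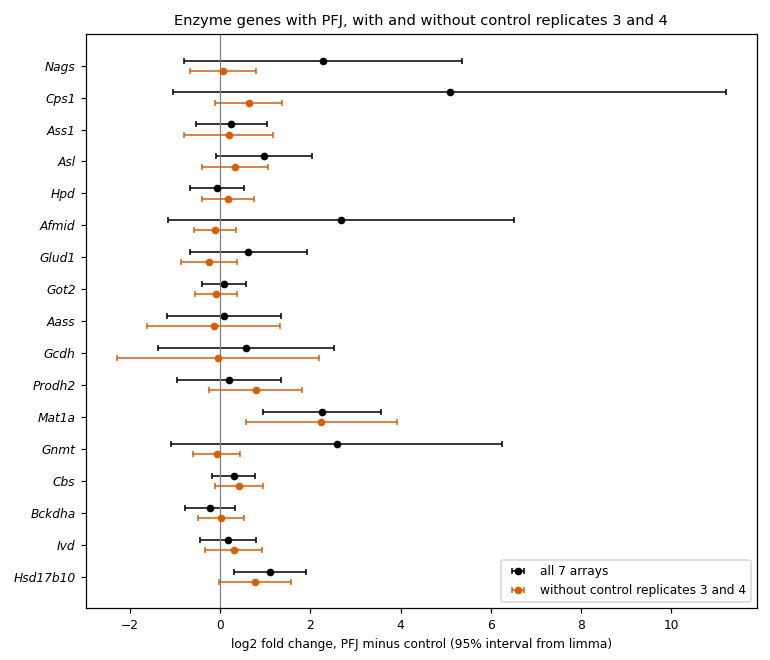
Log2 fold change, PFJ minus control (horizontal axis), with its 95% interval from limma for the 17 enzyme genes (vertical axis), on all 7 arrays in black and without control replicates 3 and 4 in orange. The wide intervals of *Nags*, *Cps1*, *Afmid* and *Gnmt* narrow and their values move to 0.07, 0.64, -0.11 and -0.07 when the 2 arrays are left out.

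The intervals narrowed most for genes that were low on control replicates 3 and 4. Standard errors on all arrays ran from 0.21 for *Cbs* to 2.59 for *Cps1*, and without the 2 arrays from 0.19 for *Got2* to 0.93 for *Gcdh*. On the other 5 arrays the 95% intervals of *Afmid*, *Got2*, *Gnmt* and *Bckdha* all lay between -0.59 and 0.53. *Got2* and *Gnmt* reached 94.7% and 96.4% of the brightest probe on an array, and whether saturation narrowed their intervals was not tested.

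Where 2 or more probes of a gene were detected, their fold changes had the same sign on all 7 arrays. This held for *Asl*, *Glud1*, *Prodh2* and *Cbs*, with 2 such probes each, and for *Afmid*, with 4. It covers passing probes only. *Afmid* had 7 listed probes and *Prodh2* 3, and the remainder did not pass the detection filter. *Aass* and *Gcdh* had 3 listed probes each and *Gnmt* 2, with 1 passing for each gene. The 4 passing *Afmid* probes gave log2 fold changes from 2.18 to 2.68 and were undetected on control replicates 3 and 4 alike. Without these arrays the same 4 ranged from -0.11 to 0.46 and differed in sign. The 2 *Glud1* probes gave -0.43 and -0.24 there and the 2 *Prodh2* probes 0.69 and 0.79.

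**Figure D4:**
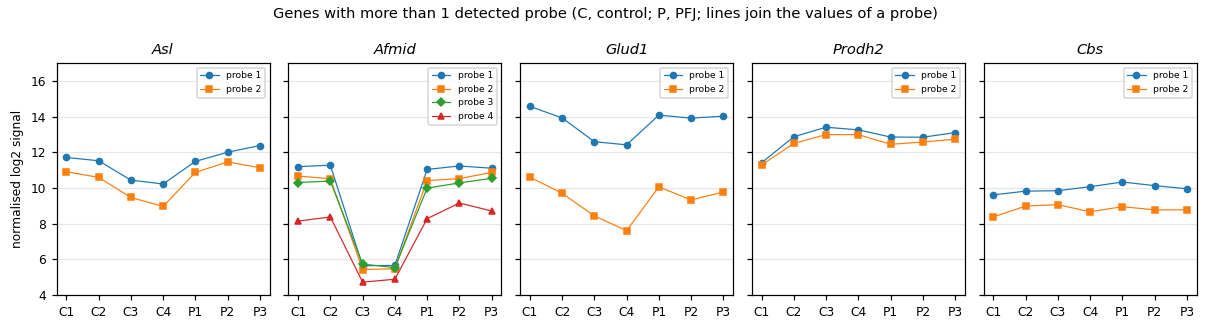
Normalised log2 signal (vertical axis) on control arrays C1 to C4 and PFJ arrays P1 to P3 (horizontal axis) for each detected probe of 5 genes, where lines only join the values of 1 probe. The 4 *Afmid* probes and the 2 *Asl* and *Glud1* probes are lowest on C3 and C4, and both *Prodh2* probes are lowest on C1.

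The other 24 genes with a listed probe did not pass the detection rule. Of these, 22 were detected on no array and 2, *Arg1* and *Oat*, on 1, PFJ replicate 3. The 28 probes of the 24 genes had raw signals between 109 and 224, with a median of 143, close to the array medians of 141 to 159. They include enzymes that hepatocytes are known to make in quantity, namely *Otc* of the urea cycle, *Tat* and *Fah* of tyrosine breakdown, *Tdo2* of tryptophan breakdown, *Hal* and *Uroc1* of histidine breakdown, *Agxt* of glyoxylate disposal, and *Ahcy*, *Bhmt* and *Cth* of the methionine route. The rest were *Kmo*, *Kynu*, *Got1*, *Gpt*, *Agxt2*, *Prodh*, *Aldh4a1*, *Bhmt2*, *Bckdhb*, *Dbt*, *Hibch* and *Aldh6a1*. A gene with each of the 46 symbols is annotated in the RefSeq assembly of the NR, but the probes were designed on mouse transcripts, so a probe at background gives no level of the NR transcript. *Sds*, *Sdsl*, *Hgd*, *Haao* and *Gls2* had no listed probe and were not analysed here, although the study selected *Sds* as changed on these arrays.

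At the border of the detection rule, *Mat1a* passed with 2 arrays, while *Oat*, ornithine aminotransferase, did not pass with 1. The raw signals of *Oat* were 116, 123, 122 and 112 in controls and 171, 150 and 224 with PFJ. Of the 28 probes of genes that did not pass, 3 had all PFJ raw signals above all control signals (*Arg1*, *Kmo* and *Oat*). A further 1, of the 3 *Dbt* probes, had them all below, and the other *Dbt* probes overlapped. Over all 19934 probes that did not pass, these shares were 2% and 1.91%. *Arg1* and *Oat* are named for their detection on a PFJ array, so their higher PFJ signals support no difference.

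Of 66 further enzymes, transporters and cofactor genes of the same pathways, 53 had a listed probe and 29 a detected one. At an unadjusted p under 0.05, 2 of the 29 were higher (2.31% of all probes) and 0 lower (2.38%) with PFJ, and 0 passed the adjusted threshold. Their median log2 fold change was 0.10, and -0.01 without control replicates 3 and 4. The lowest p-values belonged to *Pcbd1*, which recycles the cofactor of phenylalanine hydroxylase, *Nit2*, an omega-amidase, and *Mthfd1*, a folate enzyme, with log2 fold changes of 1.01, 1.17 and 0.51 (adjusted p = 0.54 from limma for each). The study selected *Nit2* and *Mthfd1* on these arrays. *Pcbd1* was 5.94, 7.03, 6.61 and 6.37 in controls and 6.72, 7.98 and 7.80 with PFJ, so that control replicate 2 lay above PFJ replicate 1, and its value without control replicates 3 and 4 was 1.01 again. On those 2 arrays 12 of the 29 genes lay below all others and 8 lay above, where 28% and 30.4% of all probes did, so that the share above was close to that of all probes.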

How the data were processed

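RNA copies were hybridised by the authors to the Illumina MouseRef-8 Version 2 BeadChip and read with BeadStudio and GenomeStudio 2011.1. They selected samples by RNA integrity and removed outlier samples by hierarchical clustering, and 7 arrays were analysed here. The deposited values are mean signal intensity per probe, without background subtraction, and a detection p-value per probe and array against the negative control beads. A second deposited table holds the authors' intensity values after background subtraction and rank invariant normalisation, on a linear scale with negative values. Its array medians were 6.16 to 8.97.

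Of 25697 probes, 23141 had 1 gene symbol in the platform annotation, 0 had several and 2556 were not listed there. Between 4689 and 5137 probes were detected per array, and the number of arrays limits the precision. Signals were background corrected and quantile normalised with neqc of limma 3.58.1 (R 4.3.3, offset 16) and are log2 values. Probes with a detection p under 0.01 on at least 2 arrays were tested, 5763 in all, with lmFit and eBayes and Benjamini-Hochberg adjustment over these probes; the methods' own Illumina Custom error model could not be run on these values. The leading probe of a gene was its detected probe with the highest mean. All 17 listed genes with such a probe were named, and of the further list the 3 with the lowest p. The fit was tested on simulated data. Samples were grouped by their titles. The genes and lists were chosen with earlier results of these data known. Alternatives changed the background correction, offset, normalisation, detection filter, probes per gene, replicate block and arrays used. No slide block was fitted because the labels name no slide.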

Additional observations from a re-analysis of the deposited data

Results flagged for a closer look

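*Gcdh*, of lysine breakdown, had 1 control array far from the others. Control replicate 1 was at 9.12 and the nearest of the other 3 control arrays at 6.63, a gap that is 0.859 of the whole control range, above the 95% limit of Dixon for 4 samples. The 3 PFJ arrays lay between 6.95 and 8.80. Chance marks about 1 in 20 groups in this way, and 18 sets of control values were examined (17 genes and their median), so that 1 such gap is near what chance gives.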

How the results depend on the processing

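None of the enzyme genes passed the adjusted threshold under any of the 17 alternatives. The median log2 fold change of the enzyme genes, 0.58, ranged from 0.32 to 1.03 with 1 array left out, was 1.03 without control replicate 1 and 0.32 without control replicate 2, and lay between 0.17 and 0.59 under the other settings. Enzyme genes higher at the unadjusted threshold were 2, and 1 with detection on at least 3 arrays, 0 with detection on all 7, 1 with the replicate block, 1 without control replicates 3 and 4, and 2 to 6 with 1 array left out, the 6 and a count of 4 being without control replicates 1 and 2. *Mat1a* leaves the test when 3 arrays are asked for, and *Hsd17b10* when 7 are.

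Over all probes, an unadjusted p under 0.05 was met by 133 with higher and 137 with lower signal. These became 75 and 82 with detection on all 7 arrays, 712 and 586 with no filter, and 49 and 39 with the replicate block, and 89 and 208 with the authors' own values. With 1 array left out they ranged from 55 (without control replicate 3) to 441 (without control replicate 1) higher and from 46 (without PFJ replicate 3) to 493 (without control replicate 1) lower. Leaving out control replicate 2 gave 376 and 426, control replicate 3 56 lower, control replicate 4 70 and 58, and PFJ replicate 3 69 higher. Scaling to equal medians gave 155 and 96. At the adjusted threshold the count of all probes was 0, with 0 to 3 when 1 array was left out (3 without PFJ replicate 1, 1 without PFJ replicate 2) and 1 without control replicates 3 and 4.

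Without control replicates 3 and 4 the sign turned for *Hpd* (0.17), *Afmid* (-0.11), *Glud1* (-0.24), *Got2* (-0.0873), *Aass* (-0.14), *Gcdh* (-0.0437), *Gnmt* (-0.0741) and *Bckdha* (0.0287). It also turned for *Hpd* with scaling to equal medians (0.0602) and for *Got2* with the replicate block (-0.0297). With 1 array left out, the ranges that crossed 0 were -0.15 to 0.46 for *Ass1*, -0.17 to 0.0842 for *Hpd*, -0.0297 to 0.16 for *Got2*, -0.23 to 0.63 for *Aass* and -0.24 to 0.42 for *Prodh2*. With no background correction the log2 fold changes of *Nags*, *Gcdh*, *Mat1a* and *Hsd17b10* were 1.36, 0.26, 1.05 and 0.53, and with the offset of 50 that of *Mat1a* was 1.51. The cause was not tested. For samples with the same replicate number, deviations from the group means correlated at 0.0662, 0.197 and 0.112. The control mean averages control replicates 3 and 4 with replicates 1 and 2, so these values cannot decide whether replicates were paired. The block changed no adjusted call.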
